A study of Homo sapiens with 6 samples.

Results

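Krüppel-like factors (KLFs) are DNA-binding transcription factors that carry zinc fingers at the C terminus and bind GC-rich and CACCC sequences in promoters and enhancers. The members differ mainly in the rest of the protein, which recruits either co-activators or co-repressors. In stratified epithelium KLF5 is a factor of the proliferating basal layers and KLF4 a factor of the differentiating layers and the barrier, whereas KLF9 is a classic glucocorticoid-induced gene of keratinocytes. The genes described here are the 10 KLF genes KLF2, KLF3, KLF4, KLF5, KLF6, KLF7, KLF9, KLF10, KLF11 and KLF13, taken by gene symbol from a table of 38167 genes. All 10 were found, and all 10 passed the expression filter that left 18676 genes for testing.

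The cells were Cal27, an established human tongue squamous carcinoma line, grown as spheroids by liquid overlay in Matrigel (a gel-forming extract of basement membrane proteins). The gel was soft (Matrigel at 3 mg/mL) or stiff (12 mg/mL), every spheroid was harvested on day 14, and each condition had 3 polyA RNA libraries. The comparison asks how matrix stiffness alters expression in these spheroids, but the higher concentration also brings more matrix protein, so stiffness and ligand cannot be told apart. The labels call the libraries biological replicates without saying whether they came from separate cultures, so the p-values measure only the spread between these libraries. The total count was between 30656278 and 40583044 fragments per library. On the second principal component (10.8% of the variance) stiff replicate 2 lay at -35, against 21.5 and 18.3 for the other stiff libraries.

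The labelled squamous identity was borne out by the 8 squamous epithelial markers, whose summed level was 5296 to 5798 CPM (the count scaled to library size) in soft and 17089 to 18164 CPM in stiff, led by KRT5. Of these 8, 6 were called higher in stiff and 2 lower. EPCAM fell 1.26-fold and CDH1 fell 1.36-fold (edgeR adjusted p = 0.011 and 0.00194). The 8 endothelial markers summed to 22.8 to 24.8 CPM in soft and 17.7 to 20.7 CPM in stiff, with EGFL7 the most abundant. Within this list CDH5 fell 18.7-fold to 0.552 CPM (edgeR adjusted p = 9.47e-07), VWF rose 2.03-fold, PECAM1 did not pass, and KDR, CLDN5 and ESAM had 0 to 4 fragments per library. The 8 fibroblast markers summed to 78.6 to 85.2 CPM in soft and 107 to 114 CPM in stiff, most of it COL1A1. LUM rose 7.55-fold, from 2.31 to 17.3 CPM (edgeR adjusted p = 6.15e-06), and ACTA2 rose 1.57-fold, while COL1A1 was at 71.8 and 82.6 CPM and COL3A1 had 0 to 2 fragments. ACTA2-AS1 and FAS cover 17.3% and 12.8% of the exons of ACTA2. The 8 leukocyte markers summed to 106 to 115 CPM in soft and 138 to 152 CPM in stiff, most of it CD68 and CD14. CD68, of whose exons AC016876.2 covers 81.7%, rose 1.8-fold, CSF1R rose 2.83-fold and ITGAM rose 1.7-fold (edgeR adjusted p of 6.37e-06 to 0.00854). CD14 fell 1.4-fold (adjusted p = 0.00218), and the pan-leukocyte gene PTPRC had 0 to 3 fragments. Markers other than the most abundant of each list are named after their values were seen. The part of these markers in the KLF results was not tested.

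KLF9 was the KLF gene with the largest difference between the gels, 3.81-fold higher in stiff than in soft. KLF6, KLF7, KLF10 and KLF5 were also higher, by 1.13-fold to 1.45-fold, and no KLF gene passed the test in the lower direction. KLF4, KLF3, KLF2, KLF11 and KLF13 did not pass. In edgeR's quasi-likelihood test at an adjusted p below 0.05, therefore, 5 of the 10 genes were called higher and 0 lower; the unadjusted p was under 0.05 for 6 higher and 0 lower genes. Among all tested genes 49.1% were called, 25.3% as higher and 23.8% as lower, so the share of KLF genes called was near the background. The median log2 fold change was 0.20 for the 10 genes and 0.00 for all tested genes. DESeq2 called 5 higher and 0 lower, and limma on log2(TPM + 1), where TPM is the length-corrected abundance, called 2 higher (KLF9 and KLF6) and 0 lower. Without soft replicate 1 or without stiff replicate 3, edgeR called 3 higher. The libraries are bulk RNA, in which more cells of a type and more RNA per cell cannot be told apart.

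**Figure D1:**
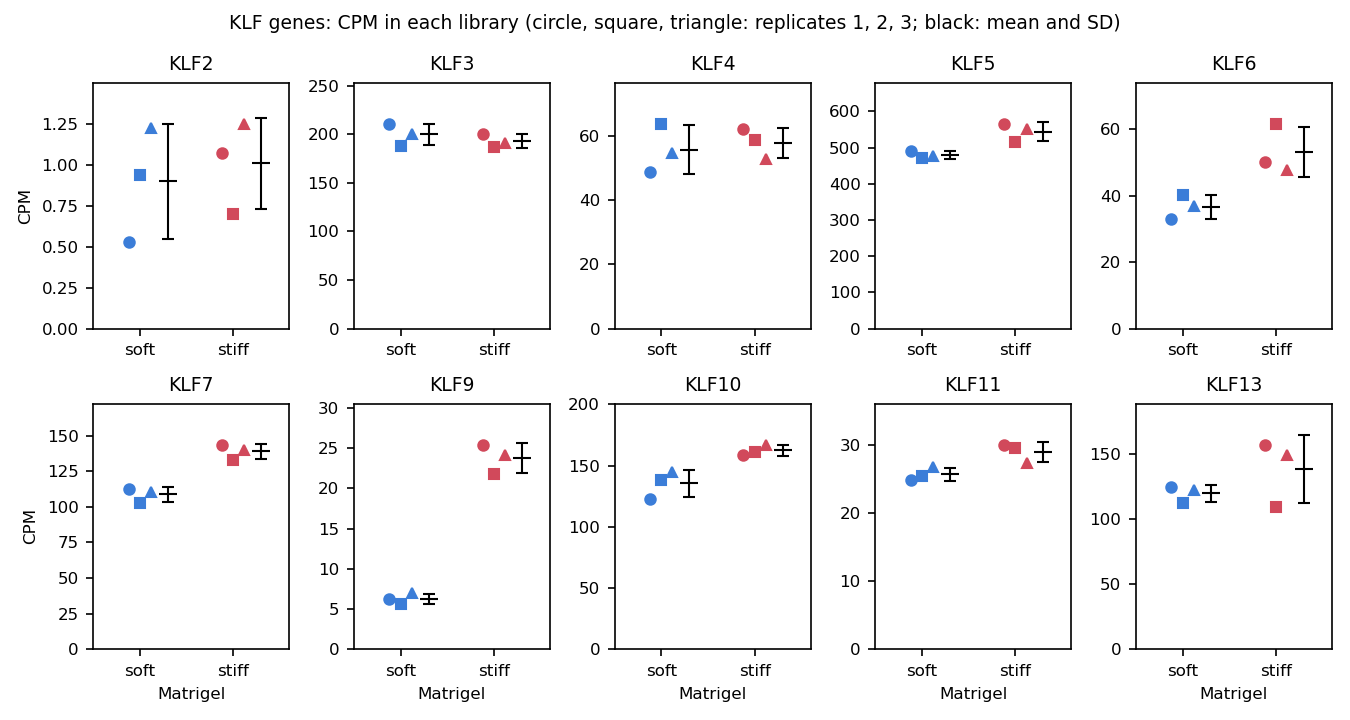
Level of each of the 10 KLF genes in CPM (vertical axis, from 0) in the 3 soft (blue) and 3 stiff (red) libraries, with the mean and SD of each group in black. KLF9 sits between 5.63 and 6.95 CPM in soft and between 21.8 and 25.5 CPM in stiff, while KLF3 and KLF4 overlap between the gels.

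KLF9 (Entrez 687, chromosome 9, 70384604 to 70414657 in GRCh38.p14) encodes a small KLF that binds the SIN3A co-repressor and restrains keratinocyte proliferation. Its level was 6.19, 5.63 and 6.95 CPM in soft replicates 1 to 3, and 25.5, 21.8 and 24.2 CPM in stiff replicates 1 to 3. The lowest stiff library was more than 3 times the highest soft library. The group means were 6.25 ± 0.661 and 23.8 ± 1.85 CPM (SD, n = 3), a log2 fold change of 1.93 ± 0.11 (SE) with a 95% interval of 3.22-fold to 4.52-fold and an adjusted p of 8.1e-07 in edgeR's quasi-likelihood test. A larger absolute log2 fold change was found in 3.18% of all tested genes. KLF9 was also the only one of the 10 genes called with at least a 2-fold rise, a criterion met by 7.6% of the tested genes. With each library left out in turn its log2 fold change stayed between 1.86 and 2.00. KLF9-DT, a long noncoding RNA transcribed away from the KLF9 promoter and chosen for mention after its values were seen, had 17, 10 and 17 fragments in soft and 64, 26 and 47 in stiff (3.11-fold, edgeR adjusted p = 0.00647). KLF9 itself had 192 to 257 fragments in the soft libraries and 778 to 878 in the stiff ones.

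The sequence upstream of KLF9 is shown beside those of KLF4 and KLF13, which did not pass the test, because these windows (the 250 bases before the annotated start) hold no annotated exon and differ in the GC and CACCC boxes that KLF and SP proteins bind. They come from RefSeq on GRCh38.p14, 5′ to 3′ on the gene's strand. Capitals mark GC boxes (GGGCGG) and CACCC boxes (CACCC) on either strand.
KLF9, chr9:70414658-70414907, minus strand: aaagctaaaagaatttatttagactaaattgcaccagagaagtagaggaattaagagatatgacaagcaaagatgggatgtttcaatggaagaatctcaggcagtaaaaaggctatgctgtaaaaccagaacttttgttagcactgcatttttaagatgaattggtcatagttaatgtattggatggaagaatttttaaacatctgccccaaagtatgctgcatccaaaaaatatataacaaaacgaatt
KLF4, chr9:107489770-107490019, minus strand: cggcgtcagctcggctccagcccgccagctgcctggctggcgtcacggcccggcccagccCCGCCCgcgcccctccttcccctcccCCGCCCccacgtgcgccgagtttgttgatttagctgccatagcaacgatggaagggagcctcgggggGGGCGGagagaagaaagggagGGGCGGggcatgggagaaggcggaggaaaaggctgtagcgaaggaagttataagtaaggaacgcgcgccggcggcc
KLF13, chr15:31326585-31326834, plus strand: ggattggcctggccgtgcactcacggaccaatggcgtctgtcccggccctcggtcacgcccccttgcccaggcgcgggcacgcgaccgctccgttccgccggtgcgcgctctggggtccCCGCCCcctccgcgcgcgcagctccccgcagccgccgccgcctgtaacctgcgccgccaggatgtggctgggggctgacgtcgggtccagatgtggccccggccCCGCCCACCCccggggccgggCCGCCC

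The KLF9 window was 32.4% G and C and held 0 GC boxes and 0 CACCC boxes. The KLF4 window was 69.2% G and C with 4 GC boxes and 0 CACCC boxes. The KLF13 window was 78.8% G and C with 3 GC boxes and 1 CACCC box, which overlaps a GC box. Of 35116 RefSeq windows of the same length, 42.6% held a GC box and 54.7% a CACCC box, and the median G and C content was 58%. RefSeq windows were matched for 8 of the 10 genes (13 windows). Among genes that rose, the KLF6 window was 72.4% G and C with 2 GC boxes. A KLF7 window held 4 GC boxes and a KLF5 window held 2. Further KLF5 and KLF7 windows, also free of annotated exons but not printed, were 40.8% and 41.6% G and C with 0 GC boxes. The printed windows were picked for their difference in boxes, so that difference says nothing of which genes rose. The full palindromic glucocorticoid response element, searched on both strands after the expression values were seen, was in 0 of these 13 windows and in 0.327% of all windows. At so low a share, 0 of 13 is the usual outcome for any windows, so this search could not set these genes apart. The half-site AGAACA was not in the KLF9 window and was in 12.4% of all windows. These matches describe letters in a window and say nothing of binding.

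The TGF-beta-inducible factors KLF10 and KLF11 are close relatives of KLF9 that also recruit SIN3A. KLF10 (Entrez 7071, chromosome 8, 102648784 to 102655725) was at 123, 139 and 145 CPM in soft and at 159, 161 and 167 CPM in stiff. Every stiff library lay above every soft library, though the gap was narrow. The rise was 1.2-fold (95% interval 1.07 to 1.35, edgeR adjusted p = 0.0156). It no longer passed without soft replicate 1 (adjusted p = 0.0854), the lowest soft library, or without stiff replicate 3 (adjusted p = 0.0534). KLF11 (Entrez 8462, chromosome 2, 10043550 to 10054836) was at 24.8, 25.5 and 26.7 CPM in soft and 30.0, 29.5 and 27.3 CPM in stiff. These values did not overlap either, yet the difference of 1.13-fold missed the threshold (95% interval 1.00 to 1.27, adjusted p = 0.0895).

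KLF13, another SIN3A-binding member, known in lymphocytes and heart, depended on 1 library. It (Entrez 51621, chromosome 15, 31326835 to 31435665) was at 125, 112 and 123 CPM in soft and at 158, 109 and 149 CPM in stiff. Stiff replicate 2 lay below all soft libraries and the other stiff libraries lay above them. The difference was 1.16-fold (95% interval 0.958 to 1.40) with an edgeR adjusted p of 0.179. Without stiff replicate 2 the log2 fold change went from 0.21 to 0.36 and the adjusted p was 3.08e-05.

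KLF5 (Entrez 688, chromosome 13, 73054976 to 73077538) was the most abundant of the 10 genes. It was at 491, 471 and 476 CPM in soft and at 565, 514 and 552 CPM in stiff. All stiff libraries lay above all soft libraries, by a small margin for stiff replicate 2. The means were 479 ± 10.7 and 544 ± 26.6 CPM (SD, n = 3), a 1.13-fold difference (95% interval 1.03 to 1.26) with an edgeR adjusted p of 0.041. The call was lost in 11 of 17 alternatives, among them scaling by library size only (adjusted p = 0.137), and over the alternatives the adjusted p ran from 0.00122 to 0.591. Without 1 library the call held when stiff replicate 2 was the one left out and was lost for each of the other libraries (adjusted p of 0.081 to 0.151).

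KLF4 (Entrez 9314, chromosome 9, 107484852 to 107489769), the factor of barrier formation, was at 48.5, 63.7 and 54.5 CPM in soft and 61.9, 58.6 and 52.8 CPM in stiff. The stiff values lay within the range of the soft ones. The ratio of stiff to soft was 1.04, with a 95% interval of 0.885 to 1.22 and an edgeR adjusted p of 0.676. The ratio of KLF4 to KLF5 TPM within a library was 0.104, 0.143 and 0.121 in soft and 0.116, 0.12 and 0.101 in stiff, which overlap. KLF2 (Entrez 10365, chromosome 19, 16324826 to 16328685), a flow-responsive factor of endothelium and a quiescence factor of T cells, was close to the limit of detection. It had 22, 32 and 38 fragments in soft and 37, 25 and 45 in stiff, or 0.896 ± 0.348 and 1.007 ± 0.279 CPM (SD, n = 3). Its 95% interval of 0.667-fold to 1.96-fold is the widest of the 10 genes, so a change within it was not detectable at this depth (edgeR adjusted p = 0.669). Without soft replicate 1 the log2 fold change of KLF2 was -0.10 and that of KLF4 was -0.04, against 0.19 and 0.06 with all libraries.

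KLF6, a widely expressed factor induced by injury and growth signals, and KLF7, a relative of KLF6 best known in neurons, both rose. KLF6 (Entrez 1316, chromosome 10, 3775996 to 3785209) was at 33, 40.2 and 36.8 CPM in soft and at 50.1, 61.6 and 47.8 CPM in stiff. Stiff replicate 2 was the highest library, and the groups did not overlap. The rise was 1.45-fold (95% interval 1.22 to 1.72, edgeR adjusted p = 0.00273) and kept its call under all 17 alternatives. KLF7 (Entrez 8609, chromosome 2, 207074137 to 207173851) was at 113, 103 and 110 CPM in soft and at 144, 133 and 140 CPM in stiff, again without overlap. It rose 1.28-fold (95% interval 1.15 to 1.42, edgeR adjusted p = 0.00182), a call lost in all 3 limma fits on log2 TPM (adjusted p of 0.125 to 0.178).

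KLF3 (Entrez 51274, chromosome 4, 38664199 to 38701517) is a repressor that acts through the co-repressor CtBP. Its level was 211, 188 and 200.4 CPM in soft and 200.7, 187 and 191 CPM in stiff, so the groups overlapped. The ratio of stiff to soft was 0.966 with a 95% interval of 0.869 to 1.07 (edgeR adjusted p = 0.573). The antisense gene KLF3-AS1 covers 4.2% of the exons of KLF3, and AC104794.4 covers 9.1% of those of KLF11. Over the 10 genes, the CPM of soft and stiff did not overlap in 6, all higher in stiff; among all tested genes that share was 59.9%, with 30.3% higher. On the deposited TPM the groups did not overlap in 2 of the 10.

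**Figure D2:**
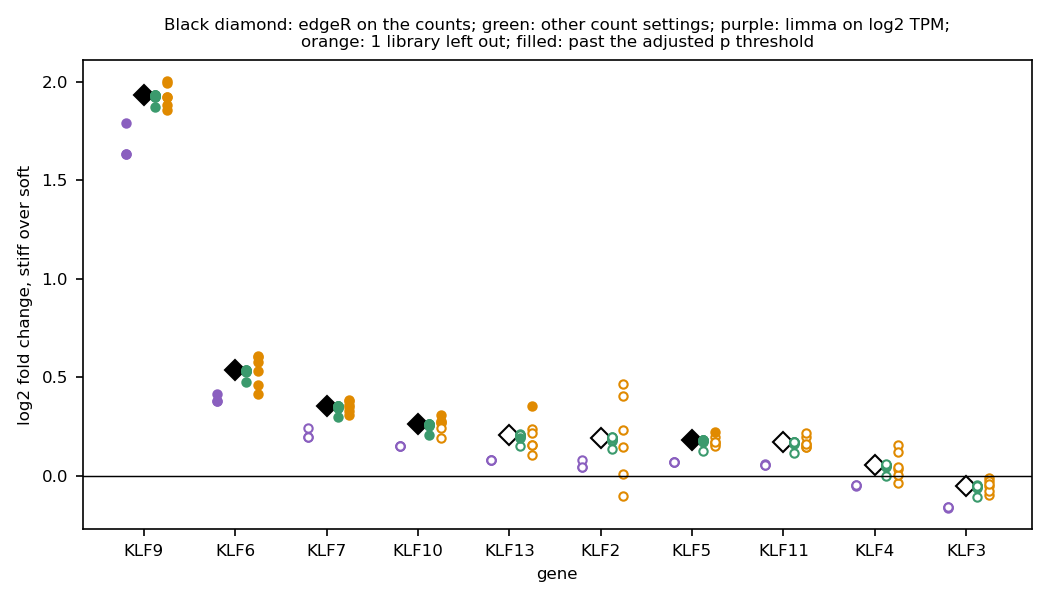
Log2 fold change of stiff over soft (vertical axis) for each of the 10 genes under edgeR (black diamonds) and under each alternative, with filled symbols where the adjusted p passed the threshold of that setting. KLF9 and KLF6 are filled throughout, whereas KLF4 lies on both sides of 0.

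Levels were set side by side between genes on the deposited TPM, which are scaled by gene lengths that no source used here gives. In soft, KLF5 led at 324 ± 18.4 TPM (SD, n = 3), followed by KLF13 at 63.1 ± 5.44, KLF10 at 55.9 ± 3.3 and KLF3 at 55.0 ± 4.91 TPM. KLF13, KLF10 and KLF3 overlapped in single libraries, so their order is not beyond their spread. KLF4 was at 39.5 ± 4.19 TPM, KLF11 at 9.13 ± 0.306, KLF6 at 8.67 ± 0.603, KLF9 at 5.13 ± 0.569, KLF7 at 3.7 ± 0.3 and KLF2 at 1.33 ± 0.503 TPM. KLF11 and KLF6 did not differ beyond their spread. In stiff, KLF9 reached 18.1 ± 2.36 TPM and passed KLF6 at 11.6 ± 0.985 and KLF11 at 9.53 ± 0.586 TPM. The order of the top 5 genes was the same as in soft. The passing of KLF6 and KLF11 depends on the lengths used. With GENCODE 29 exon lengths in place of the deposited ones, KLF9 in stiff was at 18.5 TPM, below KLF6 at 34.7 and KLF11 at 25.3 TPM. The stiff libraries of KLF13 ran from 49.7 to 79.2 TPM and overlapped those of KLF10 and KLF3.

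KLF5 made up most of the summed TPM of the 10 genes in each library. Its share was 58.5%, 56.8% and 56.5% in soft and 56.2%, 56.7% and 56.7% in stiff. KLF9 held 0.9%, 0.827% and 0.993% in soft and 3.06%, 2.9% and 3% in stiff. The KLF5 shares overlapped between the gels and the KLF9 shares did not. Per fragment and kilobase of GENCODE 29 exons, an alternative chosen after the data were seen, the KLF9 share was 0.5% in soft and 1.66% in stiff, and KLF9 had rank 9 of the 10 genes by level in both gels. On that scale KLF10 and KLF3 had ranks 2 and 3 in both gels, and KLF13 had rank 5 in soft and rank 6 in stiff, with a share of 5.28% and 5.31% against 11.1% and 11.2% on the deposited TPM.

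**Figure D3:**
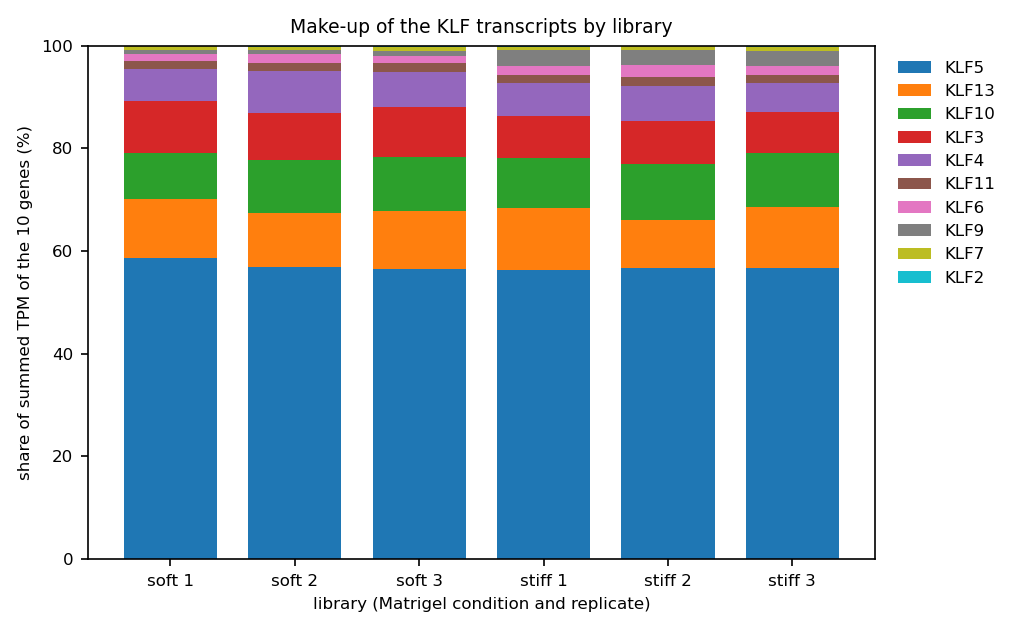
Share of the summed TPM of the 10 KLF genes held by each gene (stacked bars, percent) in each library. KLF5 holds 56.2% to 58.5% in every library, and the KLF9 segment widens from below 1% in soft to about 3% in stiff.

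The rest of the family was examined as well. Of 17 other KLF genes and genes of the related SP factors, 11 passed the expression filter, of which 2 were higher, 2 were lower and 7 did not pass. Over all tested genes 25.3% were called higher and 23.8% lower. KLF16 was at 51.9, 54.6 and 49.4 CPM in soft and 71.1, 86.0 and 69.6 CPM in stiff, a 1.45-fold rise (edgeR adjusted p = 0.000889). The antisense gene AC012615.3 covers 16.3% of the exons of KLF16, so its counts are uncertain. KLF12, a CtBP-binding repressor, rose 3.46-fold at a low level, from 22, 6 and 17 fragments to 53, 37 and 65 (edgeR adjusted p = 0.00344), but unfiltered limma on log2(TPM + 1) did not call it (adjusted p = 0.215).

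SP1, the widely expressed factor that shares GC boxes with the KLFs, was at 231, 232 and 258 CPM in soft and 184, 146 and 189 CPM in stiff. All its stiff libraries lay below the soft ones, a 1.39-fold fall (edgeR adjusted p = 0.00314). SP2, a less studied relative, had mean levels of 31.2 ± 1.32 and 23.2 ± 1.93 CPM (SD, n = 3) in soft and stiff, a 1.35-fold fall (edgeR adjusted p = 0.00229). SP3 was at 97.0 and 94.6 CPM, SP4 at 9.17 and 8.45 CPM and SP6, a factor of epidermal and tooth development, at 6.14 and 6.61 CPM (adjusted p of 0.386 to 0.694). KLF15, SP5, SP8 and SP9 were below 1 CPM in each group (adjusted p of 0.0715 to 0.998). KLF15, with 9 to 17 fragments in soft and 15, 5 and 0 in stiff, passed as lower without stiff replicate 1 (adjusted p = 0.031). AC018470.1 covers 63.7% of the exons of SP9. KLF1, KLF8, KLF14, KLF17, KLF18 and SP7 lay below the expression filter with 0 to 16 fragments per library.

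**Figure D4:**
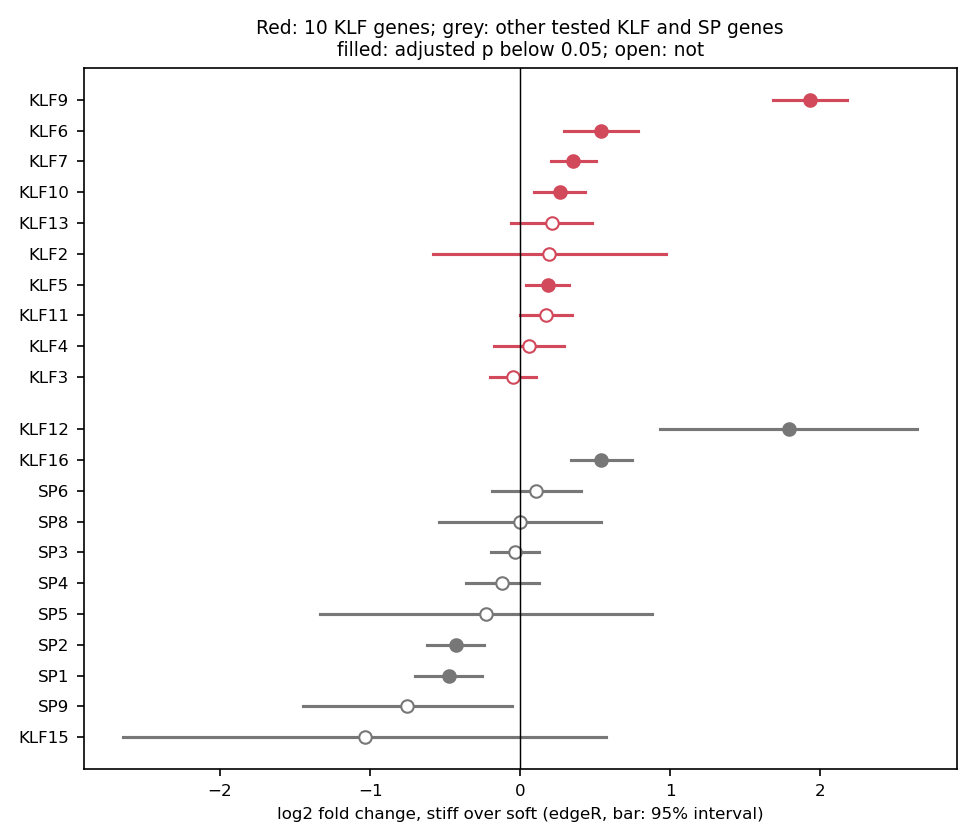
Log2 fold change of stiff over soft (horizontal axis, with 95% intervals) for the 10 KLF genes (red) and the 11 other tested KLF and SP genes (grey); filled points passed an adjusted p of 0.05. KLF9 and the low-level KLF12 lie farthest to the right, and SP1 and SP2 are the filled points on the left.

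KLF genes are switched on by several signalling routes, and the genes of these routes were counted in the same test. Glucocorticoid hormone acts through the receptor NR3C1, which directly induces KLF9 and a set of well-known targets. Of the 7 genes listed 6 were tested. In edgeR's test 5 rose and SGK1 did not pass, and the count was 5 under all 17 alternatives. Among all tested genes 25.3% were called higher. The median log2 fold change was 0.77, against 0.00 for all tested genes. The count of falls was 0, also at an unadjusted p under 0.05 and with DESeq2. The clock gene PER1 was at 13.9, 12.3 and 14.7 CPM in soft and 44.2, 41.1 and 37.0 CPM in stiff, a 2.99-fold rise (edgeR adjusted p = 1.44e-06). TSC22D3, the glucocorticoid-induced leucine zipper, was at 89.1, 91.9 and 88.4 CPM in soft and 186, 212 and 173 CPM in stiff (2.12-fold, adjusted p = 4.89e-06). In both genes the soft and stiff libraries were well separated.

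The receptor gene NR3C1 averaged 61.9 ± 4.15 CPM on soft and 100.4 ± 9.17 CPM on stiff gel (SD, n = 3), a 1.62-fold rise (edgeR adjusted p = 0.000115). The receptor co-chaperone FKBP5 was at 8.88 ± 0.546 and 15.5 ± 1.58 CPM, a 1.75-fold rise (adjusted p = 0.000197). DUSP1, a phosphatase that is also an immediate-early gene, rose 1.66-fold (adjusted p = 0.00246), and the ion transport kinase SGK1 was at 415 and 422 CPM (adjusted p = 0.809). ZBTB16 had 0 or 1 fragment per library. KLF9 and these genes have other inducers as well, and the labels name no hormone.

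**Figure D5:**
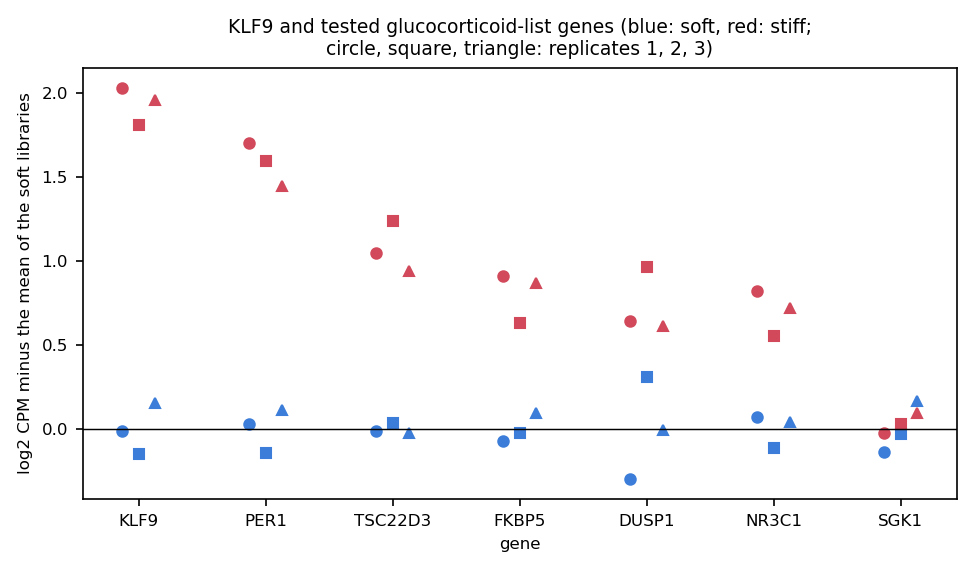
Log2 CPM minus the mean of the soft libraries (vertical axis) for KLF9 and the 6 tested genes of the glucocorticoid list, soft in blue and stiff in red. All stiff libraries lie above all soft libraries for KLF9 and the 5 genes that rose, and the libraries are mixed for SGK1.

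The kinase ERK5 and the MEF2 factors drive KLF2 and KLF4 in endothelium. Of 7 genes of this route, 3 rose and 0 fell in edgeR's test (0 also at an unadjusted p under 0.05 and with DESeq2). Over all tested genes 25.3% were called higher and 23.8% lower. MEF2A rose 1.31-fold, from 52.9 to 69.2 CPM (edgeR adjusted p = 0.00314), although the antisense partner LYSMD4 covers 11.1% of its exons. MEF2D and the kinase MAP3K3 were 1.16-fold and 1.22-fold higher (adjusted p = 0.0347 and 0.0453), and MEF2C was at 0.37 and 0.53 CPM (adjusted p = 0.458). Without any single library other than stiff replicate 2 the count of genes that rose was 1 and not 3, and limma on log2 TPM called none of them. Of 8 genes of the TGF-beta route, which induces KLF10 and KLF11, 3 rose and 1 fell, a share near the 49.1% called among all tested genes. The ligand gene TGFB1 averaged 33.7 ± 2.42 and 92.0 ± 6.81 CPM in the gels (SD, n = 3), a 2.73-fold rise (edgeR adjusted p = 8.88e-07). The receptor gene TGFBR1 and SMAD2 rose 1.23-fold and 1.15-fold (adjusted p = 0.0194 and 0.0338), and the receptor gene TGFBR2 fell 1.26-fold (adjusted p = 0.00724). Without soft replicate 2 or soft replicate 3, TGFB1 was the only member that rose.

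The immediate-early genes, whose induction KLF4, KLF6 and KLF10 can share, were called about as often as all tested genes (49.1%): of 16 tested, 6 rose and 2 fell. The count of falls was 0 without soft replicate 2 or stiff replicate 1 and 1 without soft replicate 3 or stiff replicate 3. NR4A1, a nuclear receptor, rose 2.51-fold (edgeR adjusted p = 0.00013), and the RNA-decay factor ZFP36 rose 1.4-fold (adjusted p = 0.00167). IER3 rose 1.51-fold (adjusted p = 0.00239). Partners on the opposite strand cover 10.3% of the exons of NR4A1 and 26.5% of those of IER3. In stiff replicate 2, which had the highest KLF6 value, NR4A1, ZFP36, IER3 and DUSP1 were also at their highest, at 27.4, 113, 289 and 80.2 CPM. So were FOSL1, JUNB, JUND and IER2. In contrast, FOS, FOSB, JUN, EGR1, EGR2, EGR3 and MYC were highest in soft replicate 2, and ATF3 in stiff replicate 3. Genes outside this list, such as SFN and KRT14, were also highest in stiff replicate 2. These peaks were read after the values were seen, and their cause was not tested. Without stiff replicate 2 KLF6 was still called (log2 fold change 0.42, edgeR adjusted p = 9.01e-05).

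KLF proteins act through cofactors and are degraded by ubiquitin ligases. Of 12 co-repressor and co-activator genes 3 rose and 5 fell, and without stiff replicate 2 the count that rose was 5. The shares over all tested genes were 25.3% called higher and 23.8% called lower. The deacetylase HDAC1 was at 192, 197 and 190 CPM in soft and 140.4, 141 and 140.5 CPM in stiff, a 1.37-fold fall with very little spread (edgeR adjusted p = 0.000175). The 2 CtBP co-repressor genes went in opposite directions. CTBP2 fell 1.32-fold, from 161 to 122 CPM (adjusted p = 0.000479), but the partner ZRANB1 covers 31.2% of its exons. CTBP1, named after its values were seen, rose 1.24-fold, from 99.7 to 124 CPM (edgeR adjusted p = 0.00489). The LIM protein FHL3 rose 1.96-fold to 19.1 CPM and the acetyltransferase KAT2B rose 1.69-fold to 6.98 CPM (adjusted p = 0.000119 and 0.00156). Of 10 genes for ubiquitin ligases and deubiquitinases that act on KLF proteins, 0 rose and 1 fell in edgeR's test, and 1 in each direction had an unadjusted p under 0.05. DESeq2 and limma on log2(TPM + 1) gave the same counts. The 1 of 10 called was below the 49.1% called among all tested genes. BAP1, which stabilises KLF5, fell 1.16-fold (adjusted p = 0.0395), a call lost without any 1 of 4 libraries (all 3 soft libraries and stiff replicate 1). FBXO22, SMURF1 and BTRC did not pass (adjusted p of 0.06 to 0.319), and without stiff replicate 2 FBXO22 and SMURF1 were higher (adjusted p = 0.034 and 0.000156). Antisense partners cover 16.2% and 11.7% of the exons of FBXO22 and SMURF1.

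Of 18 genes reported elsewhere as KLF targets 17 were tested; 7 rose, 4 fell, and the median log2 fold change was 0.26. Over all tested genes 49.1% were called, 25.3% as higher and 23.8% as lower, with a median of 0.00. FGFBP1, a secreted carrier of fibroblast growth factors, was at 30.1, 29.6 and 26.1 CPM in soft and 269, 338 and 249 CPM in stiff (edgeR adjusted p = 7.06e-08). The urokinase gene PLAU rose 2.02-fold (adjusted p = 2.06e-06), with 31.1% of its exons shared with an antisense gene, and the survivin gene BIRC5 rose 2.58-fold (adjusted p = 3.33e-06). The cell cycle inhibitor gene CDKN1A and the cyclin gene CCND1, classic targets that KLF4 is known to raise and lower and here named after their values were seen, had means of 75.6 and 179.8 CPM for CDKN1A and 263 and 156 CPM for CCND1 in soft and stiff. LTO1 covers 10.3% of the exons of CCND1. In the same list, also named after their values were seen, CDH1 fell 1.36-fold (edgeR adjusted p = 0.00194). KRT4 and IVL were lower without passing (adjusted p = 0.058 and 0.115). These genes have many other regulators, and the test holds no measure of KLF binding.

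The layers of the epithelium in which KLF4 and KLF5 act were read from marker lists. Of 11 tested suprabasal genes, 6 rose and 0 fell in edgeR's test; 1 fell at an unadjusted p under 0.05, 0 fell with DESeq2 and 1 fell with limma on log2(TPM + 1) and without stiff replicate 2. KRT1 went from 2.04 to 45.5 CPM, SPRR1B from 14.0 to 56.1 CPM, SPRR1A from 1.18 to 12.8 CPM and KRT10 from 24.9 to 72.6 CPM. Other members, named after their values were seen, did not rise. KRT13 was at 161 and 162 CPM in soft and stiff, with 16.3% of its exons shared with an antisense gene. KRT4 and IVL were 1.48-fold and 1.45-fold lower without passing (edgeR adjusted p = 0.058 and 0.115). FLG and CNFN did not pass either (adjusted p = 0.378 and 0.0856), and TGM3 and CRNN had 0 fragments. Of 9 basal genes, 6 rose and 1 fell. For both lists the shares over all tested genes were 25.3% called higher and 23.8% called lower. KRT14 and KRT5 rose 6.28-fold and 3.29-fold, CAV1 rose 1.79-fold and KRT15 fell 1.65-fold (adjusted p of 7.06e-08 to 1.4e-05). Some members of both lists were thus higher in stiff Matrigel, while KLF4 and KLF5 differed by 1.04-fold and 1.13-fold.

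By likeness of pattern over the 6 libraries (the smallest Euclidean distance between mean-centred log2 CPM), the genes closest to KLF5 were DNAJC21, ACVR1B and APLP2, at distances of 0.0318, 0.041 and 0.0441. Those closest to KLF13, the second gene by mean TPM, were YEATS2, LAMA5 and CKAP5, at 0.0664, 0.0689 and 0.0797. With only 6 libraries these distances rank genes and test nothing.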

How the data were processed

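The submitters' processing notes name STAR 2.6.1e, featureCounts 1.6.2, cutadapt 1.9.1 (Trim Galore 0.4.2), FastQC 0.11.7 and the build hg38. No source used here gives the annotation or strand setting. MALAT1 and its antisense gene TALAM1 had nearly equal counts (88600 to 144830 and 83538 to 134314), so overlapping genes on opposite strands cannot be told apart. The deposited counts are whole, not normalized, and listed by gene symbol. The deposited TPM values were scaled for gene length and library size by the authors and are given to 1 decimal, 1 table per library, per the file headers. 0 rows lacked a gene name.

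Stiff was tested against soft with edgeR 4.0.16 (quasi-likelihood F test after TMM scaling and the filterByExpr filter, without covariates) in R 4.3.3, with Benjamini-Hochberg adjustment over 18676 genes and a threshold of 0.05. CPM use TMM-scaled library sizes; intervals are 95% intervals from the same fit. Alternatives were DESeq2 1.42.0, other scalings, filters, dispersion and threshold, limma 3.58.1 on log2(TPM + 1) and log2(TPM + 0.1), a replicate block and each library left out. The members and lists were chosen with earlier results of these data known. Named genes are all members, every tested KLF or SP gene, the 4 smallest p-values of each list, the most abundant marker of other cell types, and the 3 genes of most like pattern for the 2 most abundant members. 1 gene that this rule names in the list of KLF targets is not reported here. Libraries of the same gel differed by more than sampling noise, with a chi-square over its degrees of freedom of 3.39 to 33.1. Positions and promoter windows are from RefSeq (GRCh38.p14), exon overlaps and lengths from GENCODE 29; partners that cover at least 10% of the exons of a named gene outside the family are given.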

Additional observations from a re-analysis of the deposited data

How the results depend on the processing

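KLF9 and KLF6 kept their direction and call under all 17 alternatives. The count of KLF genes called higher, 5 with edgeR, was 2 with limma on log2(TPM + 1), log2(TPM + 0.1) and log2(TPM + 1) without a filter, 3 at an adjusted p below 0.01, and 3 to 6 with 1 library left out; 0 were lower in any setting. Soft replicate 1 and stiff replicate 3 gave the count of 3. For KLF5 (log2 fold change 0.18) the call was lost with library size only (0.125), without the count filter (0.173), with the 3 limma fits (0.069 each), at 0.01, and without any single library other than stiff replicate 2 (0.15 to 0.22 over all 6 libraries left out in turn, where 0.22 kept the call). For KLF7 the limma fits gave 0.20, 0.24 and 0.20, and for KLF10 they gave 0.15 each; KLF10 (0.26) also missed 0.01 and ran from 0.19 to 0.31 with a library left out. KLF13 passed without stiff replicate 2 (0.11 to 0.36 with a library left out). KLF4 was 0 with library size only, -0.048, -0.049 and -0.048 in the 3 limma fits and -0.035 to 0.159 with a library left out, and KLF2 ran from -0.10 to 0.47. SP3 (-0.04) ran from -0.081 to 0.016 and SP5 (-0.23) from -0.582 to 0.208 with a library left out, and SP8 (0.00) was -0.007 with DESeq2, -0.008 without a filter, -0.056 with library size only, -0.097 with limma without a filter and -0.060 to 0.081 with a library left out. The pathway genes called higher, 23 with edgeR, were 15 in the 3 limma fits. The cause of these differences was not tested, but the median of all genes moved to -0.06 with library size only, to -0.10 on log2(TPM + 1) and to -0.11 on log2(TPM + 0.1), and higher genes were 51.5%, 44.7%, 41.3% and 41.6% of the calls in the 4 scalings. Groups that did not overlap numbered 6 on CPM and 2 on TPM. The KLF5 share was 57.3% in soft and 56.5% in stiff on TPM, 41.0% and 40.5% on CPM, and 51.0% and 50.5% per kilobase of GENCODE 29 exons; the KLF9 share was 0.907% and 2.99%, 0.535% and 1.77%, and 0.4999% and 1.66%. Of 39 other named genes past the threshold, 29 kept the call in every alternative that tested them and 0 reversed.

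With the replicate number as a block 6 KLF genes were called higher, KLF13 among them (log2 fold change 0.20, edgeR adjusted p = 0.0473). The numbers were not taken as pairs, because the labels do not say that same-numbered libraries share a day or culture. The deviations of same-numbered libraries correlated at 0.0733, 0.216 and 0.05. Those of differently numbered libraries correlated at -0.164 to 0.093. Soft replicate 1 correlated best with stiff replicate 3, at 0.0766. With so few libraries these values cannot decide whether the numbers mark pairs. Depth limits KLF2, with 22 to 45 fragments per library.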

Other observations

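The genes whose pattern over the 6 libraries was closest to that of KLF9, chosen for mention after the values were seen, were HMGCS1, an enzyme of cholesterol synthesis, KIF20A, a kinesin of cell division, and ADAM11. Their distances were 0.17, 0.171 and 0.192, and their log2 fold changes were 1.93, 1.87 and 1.92.

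The deposited TPM of KLF7 was low for its count. KLF7 had 3429 to 5051 fragments per library, close to KLF13 (3820 to 5439) and KLF10 (4506 to 6034), but 3.4 to 4.7 TPM against 49.7 to 79.2 and 52.7 to 66.2 TPM. The ratio of count to TPM, scaled to GENCODE 29 exon lengths over 5835 abundant genes, implied a length of 45638 bases for KLF7, 4.93 times its 9262 annotated exon bases. For KLF13 and KLF9 the implied lengths were 2963 and 1910 bases, 0.315 and 0.369 times their exons. Over the 5835 genes 49.2% had an implied length within 2-fold of the exon length, and so did 7 of the 10 KLF genes. By fragments per kilobase of exon KLF7 had rank 6 of the 10 genes in soft and rank 5 in stiff, and by the deposited TPM it had rank 9 in both. The fold changes of each gene between the gels do not rest on its length.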
